A study of Mus musculus with 16 samples.

Results

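The genes of oxidative phosphorylation were taken as the protein-coding nuclear genes of mouse build mm10 whose symbols begin with Ndufa, Ndufb, Ndufc, Ndufs, Ndufv, Uqcr, Cox4 to Cox8 or Atp5, or are Sdha to Sdhd. There were 96 of them among 21887 protein-coding genes. By symbol, 38 were complex I subunits, 8 were complex I assembly factors (Ndufaf genes), 4 belonged to complex II, 8 to complex III, 11 to complex IV and 17 to ATP synthase. These 86 are called the broadly used members here. A further 8 were tissue-specific isoforms and 2 were numbered paralogs of Ndufb4, and both sets were kept apart. The complex IV genes Cox10 to Cox20, which assemble the enzyme, carry other symbols and were described separately.

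Oxidative phosphorylation is carried out in the inner mitochondrial membrane. Complexes I to IV pass electrons from NADH and succinate to oxygen and all of them except complex II pump protons, and ATP synthase uses the proton gradient to make ATP. Nearly all subunits are encoded in the nucleus, with a small core set encoded in mitochondrial DNA, and the nuclear factors NRF1, GABP (an ETS factor), YY1 and the oestrogen-related receptors are known activators of the nuclear genes. Quiescent muscle stem cells are small cells with few mitochondria, and activation is known to be accompanied by growth and mitochondrial biogenesis. H3K4me3 is a histone mark of active or poised gene starts, and H3K27me3 is the mark laid down by Polycomb repressive complex 2.

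Muscle stem cells of C57BL/6 mice, taken from skeletal muscle, were labelled quiescent (QSC) or activated (ASC). The labels give no genetic alteration, and the sources used here do not give the age of the mice, the isolation of the cells or the means of activation. The 16 samples were 8 immunoprecipitated ones, in pairs of replicates for each combination of mark and state, and 8 inputs. The deposited peak lists analysed were 8, with a narrow and a broad one for each mark and state, each shared by both replicates of its group. No difference between QSC and ASC therefore has a replicate check or a test, and the lists do not tell the depth of any library. Values of all protein-coding genes stand beside those of the members in place of a test.

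An H3K4me3 call meant that at least 1 bp of a narrow peak lay in a window reaching 1 kb to either side of a gene's start. The start came from RefSeq for 78 members, and both ends of the gene record were used for the other 18. Narrow peaks no more than 1 kb apart were joined into a domain, and a gene's domain length is that of the longest domain touching its window. An H3K27me3 call meant broad peaks over 500 bp or more of a 2001-bp window. The H3K4me3 narrow list held 14354 peaks over 24.4 Mb in QSC and 15869 peaks over 35.4 Mb in ASC, and the median fold per peak was 10.4 and 16.3. Markers were set beside the labelled cell type, which they bear on, and not beside the labelled state: all 9 of 9 muscle stem cell markers were called for H3K4me3 in both states, against 0 of 5 immune and 0 of 7 mature fibre markers in either state. Of 5 endothelial markers 2 were called in both states, and of 5 fibro-adipogenic markers 1 was called in QSC and 2 in ASC. In lists made from many cells, a mark carried by fewer cells and a mark that is weaker in each cell cannot be told apart.

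All 86 broadly used members carried H3K4me3 at the start in both states. Over all 96 members, 89 (92.7%) were called in QSC, where 54.4% of all protein-coding genes were called, and 86 (89.6%) were called in ASC, against 57.0%. The call was made in both states for 86 members, against 53.7% of all genes. It was made in QSC only for 3 members, Cox4i2, Cox6b2 and Ndufa4l2, against 0.736%, and in ASC only for 0 members, against 3.29%. The remaining 7 members had no call in either state, against 42.3% of all genes. They were the isoforms Cox6a2, Cox7a1, Cox7b2, Cox8b and Cox8c and the paralogs Ndufb4b and Ndufb4c. Every member with a call missing in at least 1 state was thus a tissue-specific isoform or a numbered paralog.

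The sequences around the starts were read from RefSeq for GRCm38.p6, the build of mm10, as 250 bases before and 50 after each listed start. They were searched on both strands for GCATGCGC and for GCGCA followed by any base and GCGC (both NRF1), CCGGAAG (ETS factors, GABP included), AAGATGGCG (YY1), TCAAGGTCA (oestrogen-related receptors), GGGCGG (GC box), CCAAT and TATAAA. The NRF1 patterns can overlap each other, and the core ATGGCG lies inside the longer YY1 pattern. Entries were found for 73 broadly used members with 78 starts, and for 5 isoforms and paralogs. A match is a run of letters and not a shown binding site. The 3 promoters printed first are shown because each holds matches to more than 1 of the factors. Capitals mark matches on either strand to the NRF1, ETS, longer YY1 and oestrogen-related receptor letters only. Matches to ATGGCG alone, the GC box, CCAAT and TATAAA are not marked. Sdhd, a membrane anchor of complex II, lies at chr9:50603800-50604099, Cox6a1, a complex IV subunit, at chr5:115348909-115349208 and Ndufs6, an accessory complex I subunit, at chr13:73328433-73328732, all on the minus strand and printed 5′ to 3′.
Sdhd: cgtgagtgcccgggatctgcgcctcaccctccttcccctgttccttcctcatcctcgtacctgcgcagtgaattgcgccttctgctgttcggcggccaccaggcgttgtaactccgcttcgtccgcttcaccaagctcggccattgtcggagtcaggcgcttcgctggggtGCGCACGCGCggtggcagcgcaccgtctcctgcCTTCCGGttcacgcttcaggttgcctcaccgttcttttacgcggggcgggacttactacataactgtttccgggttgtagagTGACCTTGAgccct
Cox6a1: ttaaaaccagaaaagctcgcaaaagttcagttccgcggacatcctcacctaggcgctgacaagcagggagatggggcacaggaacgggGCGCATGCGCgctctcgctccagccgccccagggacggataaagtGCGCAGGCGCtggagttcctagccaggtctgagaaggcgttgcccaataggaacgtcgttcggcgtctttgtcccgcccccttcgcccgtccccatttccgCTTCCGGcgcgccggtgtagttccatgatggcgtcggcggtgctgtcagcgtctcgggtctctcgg
Ndufs6: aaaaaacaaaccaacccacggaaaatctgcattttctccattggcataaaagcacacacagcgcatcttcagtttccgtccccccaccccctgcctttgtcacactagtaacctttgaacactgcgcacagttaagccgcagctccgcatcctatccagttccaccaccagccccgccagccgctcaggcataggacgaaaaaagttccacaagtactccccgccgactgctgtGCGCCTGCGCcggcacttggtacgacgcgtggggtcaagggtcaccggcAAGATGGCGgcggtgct
The capitals in Sdhd mark an NRF1 match that begins at position -79 from the start, an ETS match at -46 and an oestrogen-related receptor match at 37, inside the gene. Cox6a1 holds NRF1 matches at -162 and -117 and an ETS match at -16. Ndufs6 holds an NRF1 match at -16 and the long YY1 match at 34. The QSC and ASC domains over Sdhd measured 2370 and 4484 bp, and those over Cox6a1 1642 and 2770 bp.

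NRF1 letters were found in 29.5% of the members' promoters, against 13.1% of the promoters of genes with H3K4me3 in both states and 8.25% of all 21263 promoters. The long YY1 letters were found in 10.3%, against 3.03% and 1.83%, and the ETS letters in 24.4%, against 17.9% and 11.6%. At least 1 of these matches lay in 40 promoters of 39 members. This joint count was made for the members only, so whether it exceeds that of other promoters was not tested. The oestrogen-related receptor letters were found in 2.56% of the members' promoters, those of Sdhd and Atp5g3, against 0.244% and 0.334%. The GC box was found in 43.6% of them, below the 65.7% of promoters with H3K4me3 in both states and near the 46.2% of all promoters. CCAAT was found in 41%, against 37.5% and 38.2%, and TATAAA in 8.97%, against 6.58% and 12.6%. These shares are descriptions of the letters, given with no test.

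**Figure D1:**
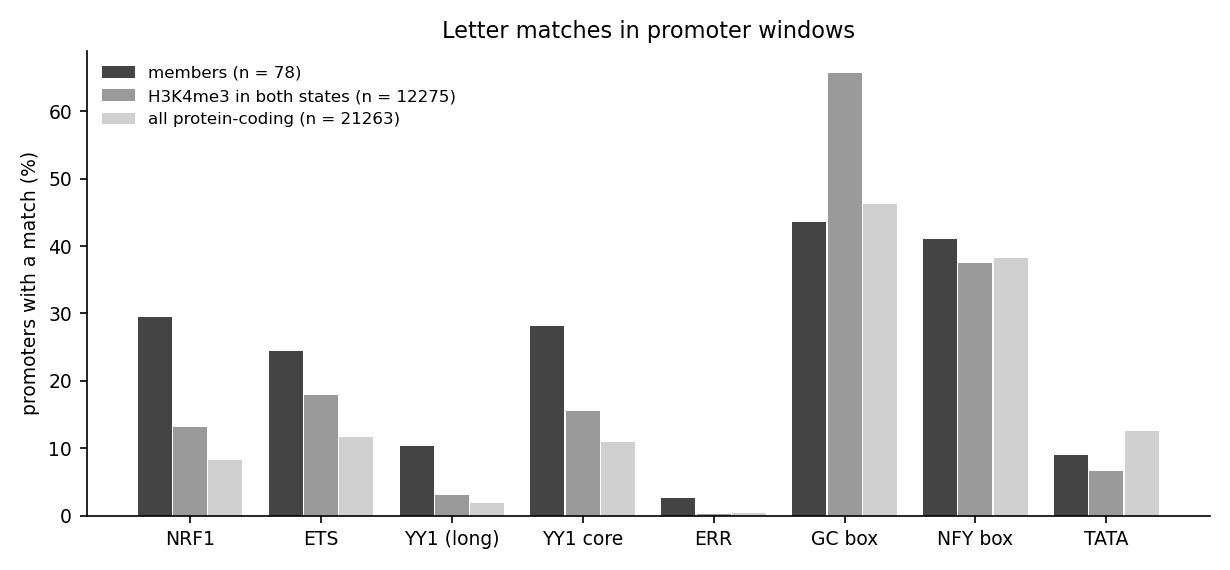
Percent of promoters with a match to each letter pattern for the 78 promoters of broadly used members, the 12275 promoters of genes with H3K4me3 in both states and all 21263 promoters. NRF1 letters reach 29.5% in the members against 13.1% and 8.25%, and the GC box 43.6% against 65.7% and 46.2%.

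The 4 isoform pairs whose promoters are both listed are printed next, because they show how CpG content stood beside the H3K4me3 calls. Cox6b1, Cox7a2, Cox7b and Cox8a are the broadly used forms of these complex IV subunits, Cox6b2 and Cox7b2 are testis forms, and Cox7a1 and Cox8b are the forms of striated muscle. Cox6b1 (chr7:30626065-30626364), Cox6b2 (chr7:4753045-4753344), Cox7a2 (chr9:79759804-79760103), Cox7b2 (chr5:71548156-71548455), Cox8a (chr19:7217567-7217866) and Cox8b (chr7:140900397-140900696) lie on the minus strand, and Cox7a1 (chr7:30183921-30184220) and Cox7b (chrX:106015450-106015749) on the plus strand, and capitals again mark matches to the NRF1, ETS, long YY1 or oestrogen-related receptor letters.
Cox6b1: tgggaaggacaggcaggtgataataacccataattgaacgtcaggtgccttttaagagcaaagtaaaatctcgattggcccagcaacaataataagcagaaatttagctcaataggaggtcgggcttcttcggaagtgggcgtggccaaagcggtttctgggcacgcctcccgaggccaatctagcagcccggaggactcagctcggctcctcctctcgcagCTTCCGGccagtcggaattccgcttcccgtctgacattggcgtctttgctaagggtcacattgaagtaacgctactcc
Cox6b2: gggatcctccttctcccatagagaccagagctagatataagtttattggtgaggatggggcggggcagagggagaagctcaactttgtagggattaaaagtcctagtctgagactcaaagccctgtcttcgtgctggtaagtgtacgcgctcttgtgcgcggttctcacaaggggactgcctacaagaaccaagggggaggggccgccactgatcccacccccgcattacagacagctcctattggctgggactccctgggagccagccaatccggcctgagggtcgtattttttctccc
Cox7a2: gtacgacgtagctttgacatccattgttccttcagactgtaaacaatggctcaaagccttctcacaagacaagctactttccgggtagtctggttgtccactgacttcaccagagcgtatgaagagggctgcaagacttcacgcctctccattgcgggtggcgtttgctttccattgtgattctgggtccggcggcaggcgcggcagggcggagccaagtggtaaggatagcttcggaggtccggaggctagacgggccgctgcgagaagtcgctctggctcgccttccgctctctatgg
Cox7a1: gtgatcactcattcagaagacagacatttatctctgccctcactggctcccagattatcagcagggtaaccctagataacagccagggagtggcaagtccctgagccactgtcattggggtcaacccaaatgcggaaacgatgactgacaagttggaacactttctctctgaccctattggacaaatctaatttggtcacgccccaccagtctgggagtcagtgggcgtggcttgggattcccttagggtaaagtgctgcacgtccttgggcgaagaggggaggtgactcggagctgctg
Cox7b: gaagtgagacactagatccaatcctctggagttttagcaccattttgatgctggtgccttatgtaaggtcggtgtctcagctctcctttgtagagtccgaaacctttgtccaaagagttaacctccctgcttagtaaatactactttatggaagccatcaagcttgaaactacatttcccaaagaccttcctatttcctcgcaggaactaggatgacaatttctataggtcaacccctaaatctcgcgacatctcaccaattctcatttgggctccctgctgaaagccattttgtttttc
Cox7b2: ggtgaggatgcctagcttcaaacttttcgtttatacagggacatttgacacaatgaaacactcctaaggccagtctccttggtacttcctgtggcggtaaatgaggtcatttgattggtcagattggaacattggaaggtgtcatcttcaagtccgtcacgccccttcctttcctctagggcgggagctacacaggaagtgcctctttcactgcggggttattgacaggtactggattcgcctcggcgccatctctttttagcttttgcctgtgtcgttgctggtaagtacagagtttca
Cox8a: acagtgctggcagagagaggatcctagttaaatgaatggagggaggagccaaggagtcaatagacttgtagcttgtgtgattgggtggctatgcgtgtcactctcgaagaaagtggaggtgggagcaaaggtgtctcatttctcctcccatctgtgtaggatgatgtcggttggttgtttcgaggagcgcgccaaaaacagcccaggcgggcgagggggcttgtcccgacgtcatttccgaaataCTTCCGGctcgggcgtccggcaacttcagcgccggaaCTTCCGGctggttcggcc
Cox8b: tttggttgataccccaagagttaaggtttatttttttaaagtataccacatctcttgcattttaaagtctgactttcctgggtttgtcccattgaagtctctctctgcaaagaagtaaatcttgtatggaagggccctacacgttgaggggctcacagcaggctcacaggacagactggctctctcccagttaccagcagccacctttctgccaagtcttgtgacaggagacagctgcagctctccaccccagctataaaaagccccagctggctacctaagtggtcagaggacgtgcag
Cox6b1 held 17 CpG dinucleotides in these 300 bases and Cox6b2 10, Cox7a2 held 20 and Cox7a1 7, and Cox8a held 19 and Cox8b 2. In these 3 pairs the counterpart, with H3K4me3 in both states, had more. The fourth pair went the other way, with 5 CpG in Cox7b, which had H3K4me3 in both states, and 10 in Cox7b2, which had none. The median was 20 CpG over the members' 78 promoters, 7 over the 5 isoforms and paralogs, 21 over promoters with H3K4me3 in both states and 3 over those with it in neither. The ETS letters lie once in Cox6b1 and in 2 places in Cox8a, and the other 6 of these promoters hold none of the capitalised patterns.

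The H3K4me3 domains of the broadly used members were longer in ASC than in QSC at 86 of 86 genes, where 90.8% of all genes called in both states had the longer domain in ASC. Median lengths of the members were 1752.5 bp (QSC) and 3051.5 bp (ASC). That of all called genes was 1809 bp and 2655 bp. In QSC the members were thus close to the median of all genes, and in ASC they were above it. The median log2 ratio of length, ASC over QSC, was 0.79, with a 95% interval over genes from 0.74 to 0.88, and that of all 11755 genes called in both states was 0.54, with an interval from 0.54 to 0.55. Each interval is one for the median, with genes taken as independent, and describes neither the spread of the genes nor that of replicates. The members' ratios ran from 0.06 to 1.61 with quartiles at 0.63 and 0.94, and the quartiles of all genes were 0.28 and 0.81. A domain at least 2-fold longer in ASC was found at 16 members, which is 18.6% of the 86, against 13.6% of all genes. The median gain was 1370 bp for the members and 837 bp for all genes. The ASC list as a whole covered more bases at a higher median fold, and the part of that in these lengths was not tested. When the ASC list was shortened by fold to the covered bases of the QSC list, the median log2 ratio was 0.79 for 84 members and 0.56 for all genes. That step removes peaks without shortening those kept.

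**Figure D2:**
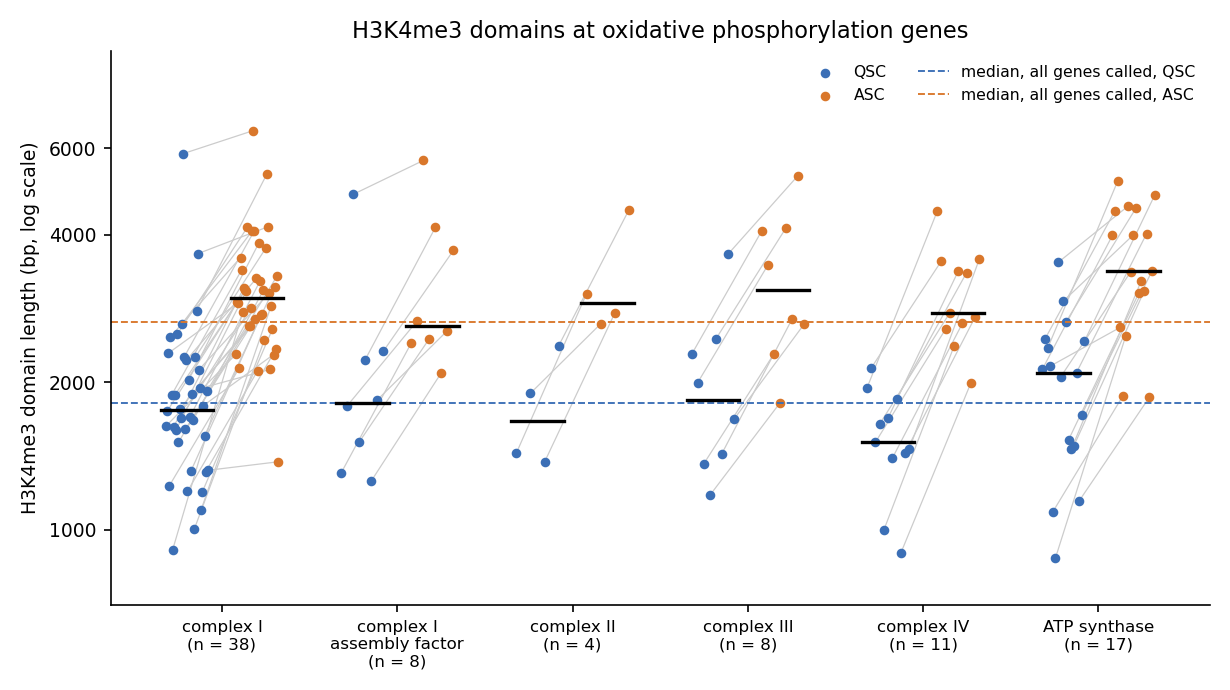
H3K4me3 domain length (bp, log axis) of each broadly used member in QSC and ASC, grouped by complex, with 1 point per gene and state. Every broadly used member lies higher in ASC, with medians of 1752.5 and 3051.5 bp over all of them, and the isoforms are not drawn.

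Complex I, which oxidises NADH, had median domains of 1752.5 bp (QSC) and 2976 bp (ASC) over 38 genes, and a median log2 ratio of 0.77. It held both extremes of the whole set. Ndufa3, an accessory subunit, had the largest ratio, with 910 bp in QSC and 2786 bp in ASC, a log2 ratio of 1.61. Its ASC domain also reached the window of Oscar, which its QSC domain did not. The accessory subunit Ndufs5 had 1097 and 2867 bp (1.39), and the accessory subunit Ndufc1 had 1002 and 2439 bp (1.28). All 3 of these genes had QSC domains well under the median of their complex.

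Small ratios were also found at genes of complex I or its assembly. The accessory subunit Ndufv3 had 1321 bp in QSC and 1375 bp in ASC, a log2 ratio of 0.06. Ndufs4, an accessory subunit whose loss causes Leigh-like disease in mice, had 1941 and 2123 bp (0.13). Ndufb10, an accessory subunit of the membrane arm, had 5854 and 6524 bp (0.16), the longest domain of any member in both states. That domain also touched the windows of Rps2, which encodes a ribosomal protein, and Rnf151, so its length need not be that of 1 promoter. The assembly factor Ndufaf3 had 4836 and 5671 bp (0.23) in a domain shared with Dalrd3. Ndufb10 and Ndufaf3 had domains among the longest of the set in QSC. Their small ratios depended on the merging gap. The highest QSC peak at Ndufb10 alone spanned 1683 bp. With only touching peaks merged, the log2 ratio was 1.96 at Ndufb10 and 0.88 at Ndufaf3. Ndufs1, the largest core subunit, had 2796 and 5312 bp in a domain shared with Eef1b2. The 8 assembly factors had medians of 1814 bp (QSC) and 2608 bp (ASC), and their median log2 ratio of 0.69 was the lowest of the groups.

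Complex II, succinate dehydrogenase, had a median log2 ratio of 0.96 over its 4 genes, the highest of the groups. Sdha, the flavoprotein, had 1434 bp in QSC and 3032 bp in ASC. Sdhb, the iron-sulphur subunit, had 1898 and 2630 bp, and the membrane anchors Sdhc and Sdhd had 1373 and 2762 bp, and 2370 and 4484 bp. Sdhb therefore gained least of the 4, and it was also the only one whose domain touched no other gene's window. Complex III, which passes electrons from ubiquinol to cytochrome c, had medians of 1837 and 3077.5 bp over 8 genes and a median log2 ratio of 0.75. Uqcrh, its hinge subunit, had 3646 bp in QSC and 5280 bp in ASC, in a domain shared with Lrrc41.

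Complex IV, cytochrome c oxidase, had the shortest median domain in QSC, 1508 bp over 11 genes, and 2770 bp in ASC, with a median log2 ratio of 0.92. Cox8a, a small membrane subunit, had the largest ratio of this complex, with 1458 bp in QSC and 3561 bp in ASC (1.29). ATP synthase had the longest median domain in both states, 2092 and 3369 bp over 17 genes, with a median log2 ratio of 0.91. Atp5g1, one of the genes for the c subunit of the membrane rotor, had 875 and 2480 bp (1.503). Atp5g2, another gene for the same protein, had 3511 and 4579 bp. In QSC the Atp5g2 domain joined more than 1 narrow peak, and its highest peak alone spanned 1207 bp. These genes for 1 protein thus had QSC domains of very different length, but their highest QSC peaks differed less. Atp5c1, the gamma subunit of the central stalk, had 2345 and 5148 bp in a domain shared with Kin.

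Across the 86 members, domain length in QSC and in ASC ranked similarly, with a Spearman rho of 0.82. The log2 ratio ran against the QSC length, with a rho of -0.47 over the 86 members and -0.35 over the 11755 genes called in both states. These are descriptions across genes, and the length in QSC enters both axes of the second relation.

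The fold of the highest peak at each member placed most of them in the upper part of each list. This fold is the authors' value within 1 list, so members were placed by its rank there, as the percentage of the list's narrow peaks that lie below it. The broadly used members had a median fold of 13.4 in QSC (range 4.84 to 25.2) and 30.0 in ASC (range 12.4 to 43.4). That of all called genes was 11.9 and 21.9, and folds are not compared between the lists. Their median rank was percentile 70.2 in QSC and 84.6 in ASC, and that of all called genes was 61.2 and 64.3. At percentile 75 or above were 32 of 86 members (37.2%) in QSC and 58 (67.4%) in ASC, and of all called genes 32.0% and 35.5%. Above the median of the list were 72 members (83.7%) in QSC and 84 (97.7%) in ASC, and of all called genes 63.1% and 66.9%. Since the lists differ in length and content, these ranks are set side by side and not subtracted.

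**Figure D3:**
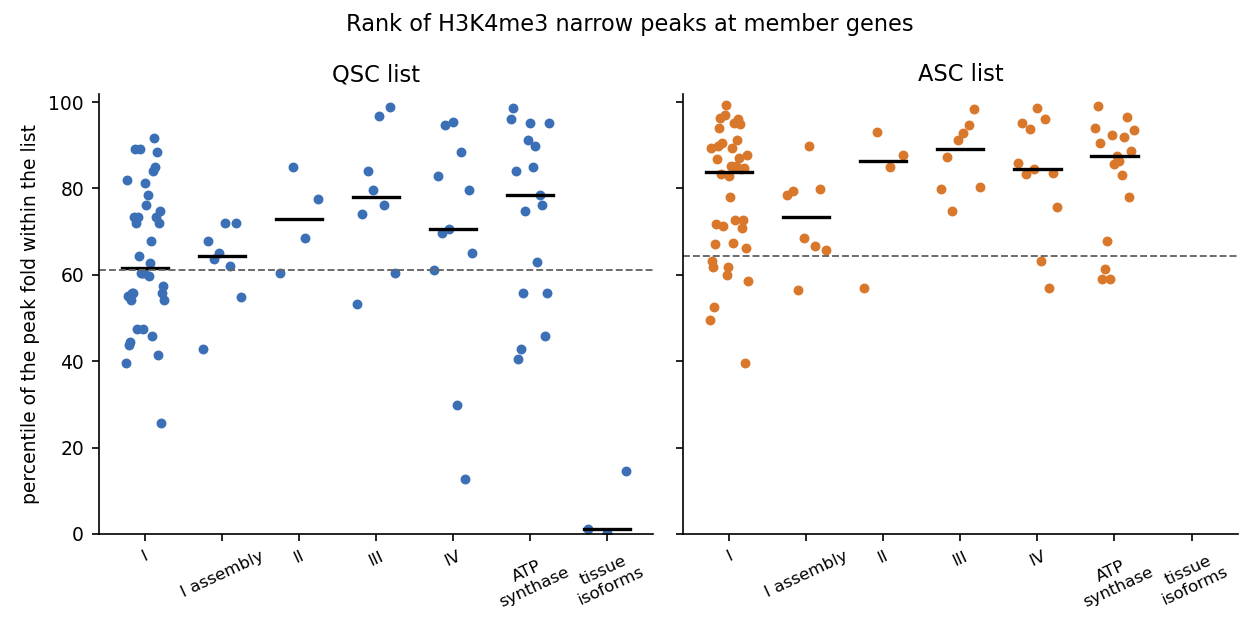
Within-list percentile of the H3K4me3 fold of each called member, by complex, in QSC and ASC, with 1 point per gene and a dashed line at the median of all called genes (61.2 and 64.3). Most broadly used members lie above the line in ASC, and the 3 isoforms called in QSC lie at percentile 14.7 or below.

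Genes at the top of the QSC list were Uqcrh at percentile 99.0 and Atp5b at 98.6. The summit of the Uqcrh peak lay at position -1215 from the start in QSC and -1243 in ASC. It was thus upstream of the 1 kb window in both states, in the domain shared with Lrrc41. The ranks of Uqcrh are therefore not those of its start alone. Atp5b encodes the catalytic beta subunit of ATP synthase. Uqcrc2, a core protein of complex III, stood at 96.9, Atp5a1, the alpha subunit of ATP synthase, at 96.1, and Cox6c, a small complex IV subunit, at 95.5. The 5 lowest broadly used members in QSC were Cox7b (12.6), Ndufs8 (25.8), Cox7a2 (29.9), Ndufa1 (39.6) and Atp5d (40.6). Ndufs8 is a core iron-sulphur subunit of complex I, Ndufa1 an accessory one, Cox7b and Cox7a2 are small complex IV subunits, and Atp5d is a subunit of the central stalk.

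In ASC the highest ranks were those of Ndufb10 (99.2), Atp5b (99.1), Cox6c (98.6), Uqcrh (98.5) and the accessory complex I subunit Ndufb1 (97.0). In QSC the peak at the Ndufb10 start stood only at percentile 60.5. Its ASC peak spanned 6524 bp in the domain shared with Rps2. The summit of that ASC peak lay 3568 bp downstream of the Ndufb10 start, beyond the 1 kb window. The rank of 99.2 is thus not that of the Ndufb10 start. The lowest in ASC were Ndufs8 (39.5), Ndufa1 (49.45), Ndufa13 (52.6), Ndufaf3 (56.4) and, at the same value of 56.9, Sdha and Cox7b. Atp5b, Cox6c and Uqcrh were thus among the 5 highest in both states, and Ndufs8, Ndufa1 and Cox7b among the lowest in both. For Uqcrh the peak ranked had its summit outside the window in both states. The ranks of the 86 members in QSC and ASC had a Spearman rho of 0.73. By complex, the median percentile in QSC was lowest for complex I (61.6) and highest for ATP synthase (78.6). In ASC it was lowest for the assembly factors (73.4) and highest for complex III (89.2).

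The longer ASC domains reached further on the downstream side, into the gene. The edges were measured for 73 broadly used members with a listed start inside the domain in both states. The domain reached a median of 570 bp upstream of the start in QSC and 947 bp in ASC, and 1072 bp and 2070 bp downstream. The median gain was 364 bp upstream and 923 bp downstream, and for 8938 genes measured in the same way it was 231 and 572 bp. The downstream gain was the larger one at 65 of the 73 members (89.0%), against 70.9% of all genes. The summit of the highest peak lay a median of 242 bp downstream of the start in QSC and 329 bp in ASC, and 287 and 339 bp for all genes.

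**Figure D4:**
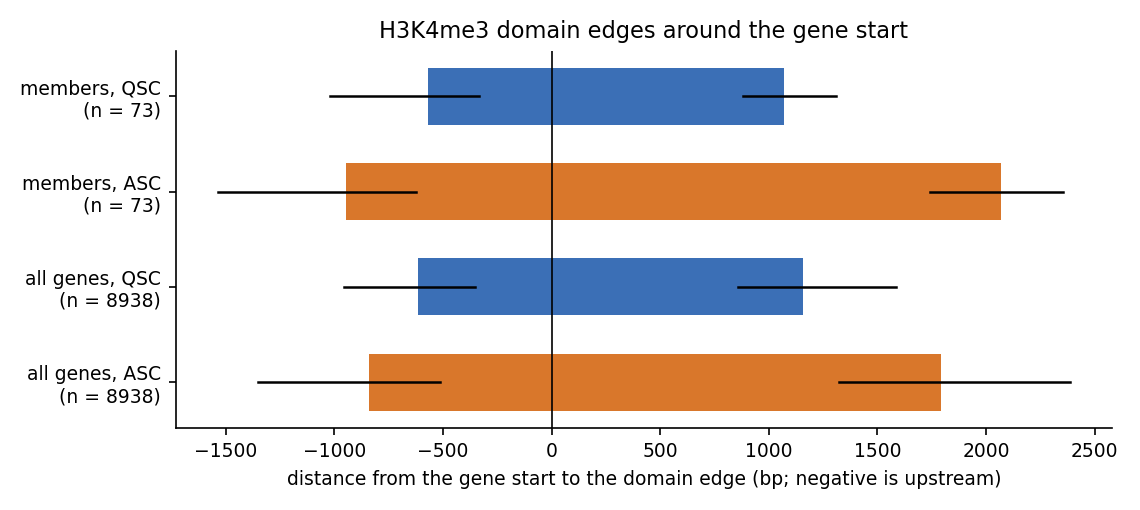
Reach of the H3K4me3 domain upstream and downstream of the listed start (bp) in QSC and ASC for the 73 broadly used members with a start inside the domain in both states. Downstream reach had medians of 1072 and 2070 bp and upstream reach of 570 and 947 bp.

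Many of these domains also reached the window of a neighbouring gene. The domain touched the window of another protein-coding gene at 36 of 86 members (41.9%) in QSC, against 21.3% of all called genes, and at 37 (43.0%) in ASC, against 21.8%. An overlap of 1 bp with that window sufficed, so the domain need not lie over the neighbour's start. The neighbours' windows include both record ends where no start is listed, so these counts hold some neighbours touched at their far end. Counting only listed starts, 22 of 73 members (30.1%) had a start on the opposite strand within 1 kb upstream, against 14.8% of 9549 genes. Among them were Atp5j and Gabpa, the latter encoding the DNA-binding subunit of GABP. Others were Ndufa7 with the ribosomal protein gene Rps28, Ndufb5 with the mitochondrial ribosomal protein gene Mrpl47, and Sdhd with Timm8b, whose product takes part in mitochondrial protein import. Members with a domain shared in ASC had medians of 2218 bp (QSC) and 3843 bp (ASC), and the 49 others had 1526 and 2713 bp. The median log2 ratio was 0.77 and 0.80, so sharing went with longer domains in each state and with a similar ratio. All 49 members with an unshared domain had the longer one in ASC.

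At their starts or record ends the tissue-specific isoforms had short H3K4me3 peaks or none, unlike their broadly used counterparts, and 5 of the 8 carried H3K27me3 in at least 1 state. Cox4i2 (a lung-enriched isoform induced by low oxygen), Cox6a2, Cox7a1 and Cox8b (heart and skeletal muscle isoforms), Cox6b2, Cox7b2 and Cox8c (testis isoforms) and Ndufa4l2 (a hypoxia-induced relative of Ndufa4) make up the set. In ASC 0 of the 8 had a narrow H3K4me3 peak in the window, and in QSC 3 had a short one. At Cox4i2 it spanned 354 bp (chr2:152754383-152754736) with a fold of 3.20, at percentile 1.18 of the list. At Cox6b2 it spanned 210 bp with a fold of 2.47, at percentile 0.0906. At Ndufa4l2 it spanned 301 bp with a fold of 5.08, at percentile 14.7, and it also touched the window of Stac3. All 3 peaks were thus weak by the measure of their own list.

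The 7 counterparts carried longer domains, in both states. Cox4i1 had 1947 bp in QSC and 4463 bp in ASC, Cox6a1 had 1642 and 2770 bp, and Cox6b1 had 998 and 2367 bp. Cox7a2 had 1398 and 2636 bp, Cox7b had 894 and 1991 bp, Cox8a had 1458 and 3561 bp, and Ndufa4 had 1623 and 3120 bp. The shortest of these, Cox7b in QSC, was still longer than any isoform peak in the windows. Ndufa4l2 needs a qualification, because further narrow peaks lay inside its record but beyond the windows at its ends. The one in QSC spanned chr10:127511382-127513231 (1850 bp, fold 6.29, percentile 23.1) and the one in ASC chr10:127510903-127513471 (2569 bp, fold 11.2, percentile 36.1). Its call in QSC only therefore describes the ends of the record and not the locus. For the other 7 isoforms no narrow peak lay within 5 kb of the record in ASC. Cox7a1 and Cox8b, whose products replace Cox7a2 and Cox8a in striated muscle, had a peak in QSC in the broad H3K4me3 list, with a fold of 1.61 at each. The -log10 q of these peaks was only 0.0124 at Cox7a1 and 0.0004 at Cox8b, so neither shows the mark. That QSC list held 184538 peaks with a median -log10 q of 0, and the ASC one 29297 peaks with a median of 0.76. The broad lists of the 2 states are thus unlike in size and score. In that broad list 91 of 96 members had a peak in the window in QSC, against 68.3% of all genes, and 87 in ASC, against 62.7%.

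**Figure D5:**
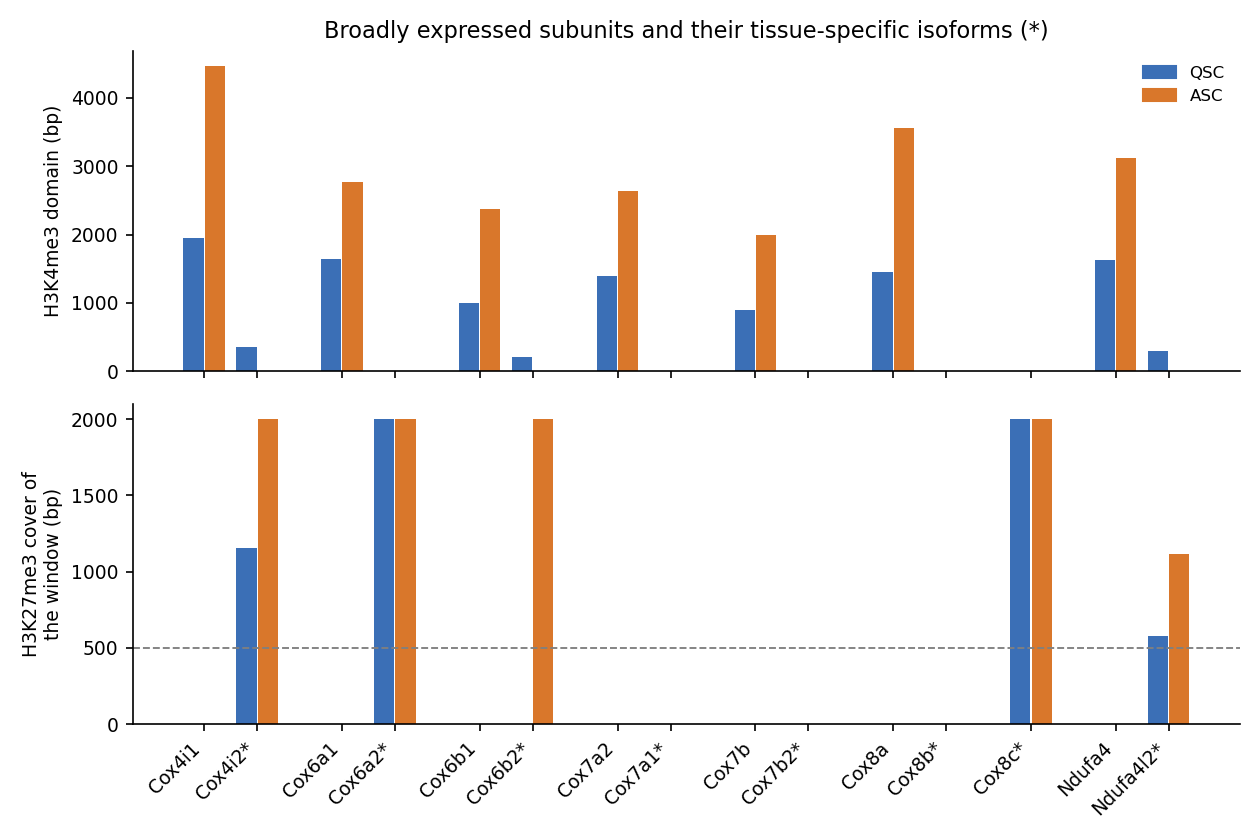
H3K4me3 domain length and H3K27me3-covered bases of the window (bp) in QSC and ASC for the 8 tissue-specific isoforms and their 7 broadly used counterparts, with a dashed line at 500 bp for the H3K27me3 call. The counterparts have domains of 894 to 4463 bp and no H3K27me3, and the peaks of Ndufa4l2 beyond the end windows are not drawn.

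By the call used here, H3K27me3 was nearly limited to the isoforms and paralogs, but this depended on the setting. At a -log10 q of at least 1.3 the 1 call left in QSC was that of Atp5k, a broadly used member. With windows of 2.5 kb 22 members were called in QSC and 28 in ASC, more than the 8 isoforms and 2 paralogs together. The share of all genes was not computed at these other settings, so whether such counts are high or low is not known. By the main call 7 of 96 members were called in QSC, against 24.9% of all genes, and 6 in ASC, against 30.0%. Which state had the higher count turned with the setting, for example to 4 in QSC and 6 in ASC when 1000 bp had to be covered. Of the 86 broadly used members 1 was called in QSC and 0 in ASC. Within 5 kb of the start or record ends, any H3K27me3 broad peak was found at 32 of the 86 (37.2%) in QSC and 30 (34.9%) in ASC, and at 55.4% and 55.2% of all genes. The broad lists hold many peaks of low score, with a median -log10 q of 0.42 in QSC and 0.38 in ASC, which limits each call.

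Cox6a2 and Cox8c had the whole 2001-bp window covered in both states. The peak over Cox6a2 spanned 3309 bp in QSC, 33119 bp in ASC, and also reached Itgad, and that over Cox8c spanned 26787 and 34829 bp. Cox4i2 had 1152 bp covered in QSC and 2001 bp in ASC, and Ndufa4l2 had 579 and 1117 bp. These 4 isoforms were called in both states. None of the 4 has a listed start, so each value is that of the better covered record end. Their QSC broad peaks had a -log10 q from 0.56 (Cox6a2) to 1.03 (Ndufa4l2). At Ndufa4l2 the QSC H3K27me3 peak lay at the higher end of the record and the H3K4me3 narrow peak at the lower end. Cox6b2, Cox7a1, Cox7b2 and Cox8b were placed by a listed start. Cox6b2 had 0 bp covered in QSC and 2001 bp in ASC, under a broad peak of 4561 bp with a fold of 1.64 and a -log10 q of 0.27. It was the only member called in ASC only, against 7.68% of all genes. Cox7a1, Cox7b2 and Cox8b had no H3K27me3 in the window in either state. Cox7b2 had neither mark, so absence of H3K4me3 at an isoform did not always come with H3K27me3.

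Of the paralogs, Ndufb4c was fully covered in both states by a peak of 30566 bp (QSC) and 30511 bp (ASC). Ndufb4b had 515 bp covered in QSC and 378 bp in ASC. Reads at paralogs may be shared with Ndufb4, so both are uncertain. Ndufb4b and Atp5k were the members called in QSC only, against 2.56% of all genes. Atp5k, which encodes the e subunit of ATP synthase, had 653 bp covered in QSC and 93 bp in ASC. The peaks behind these values spanned 5840 bp and 7769 bp and met only the edge of the window in ASC, and the gene had H3K4me3 domains of 1458 and 3224 bp. In the broad lists its difference between states was thus a shift of a peak edge within the window. In the narrow lists a peak met the Atp5k window in QSC and none did in ASC. The nearest case below the threshold was Ndufa8, with 477 bp in ASC.

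Other genes of mitochondrial energy metabolism had the mark nearly as uniformly. H3K4me3 was called in both states at 14 of 15 electron carrier genes, 35 of 35 assembly factors with other symbols, 13 of 13 tricarboxylic acid cycle genes and 16 of 17 regulators, against 53.7% of all genes. Their median log2 ratios of domain length were 0.70, 0.67, 0.77 and 0.77, against 0.54 for all genes. The carrier without a call was Cyct, the testis cytochrome c, which had 1414 bp of H3K27me3 in QSC and 0 bp in ASC. Cycs, the somatic cytochrome c, had H3K4me3 domains of 1961 and 2412 bp. Etfa, a subunit of the electron transfer flavoprotein, had 398 bp of H3K27me3 in QSC and 551 bp in ASC beside domains of 1492 and 2005 bp. Coq8a, which acts in ubiquinone synthesis, had 2486 bp in QSC and 1851 bp in ASC (-0.43), a direction that 0 of the 86 broadly used members took. Uqcc2, a complex III assembly factor, also had the shorter domain in ASC, 959 bp in QSC and 882 bp in ASC.

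Among the regulators, Nrf1 had 2834 bp in QSC and 3691 bp in ASC. Gabpb1, which encodes a partner of GABPA, had 3000 and 5000 bp. Gabpa shared its domain of 2656 and 4538 bp with Atp5j. Tfam, the factor that packages mitochondrial DNA, had 1322 and 2513 bp, and Tfb1m and Tfb2m had 1129 and 1986 bp, and 2142 and 4558 bp. Polrmt, the mitochondrial RNA polymerase, had the largest ratio of the list, with 498 and 1272 bp (1.35). The genes of mitochondrial DNA replication were longer in ASC as well, with 2546 and 3957 bp at Polg, 1533 and 2008 bp at Polg2 and 1947 and 3995 bp at Twnk. Yy1 had 3924 and 6052 bp, at percentile 99.8 in QSC and 99.4 in ASC. These regulators of mitochondrial DNA and of the nuclear genes thus had the longer domain in ASC.

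The coactivators and receptors were less uniform. Ppargc1a, the PGC-1alpha coactivator of mitochondrial biogenesis, had neither mark at its start in either state, while its relatives Ppargc1b and Pprc1 had 4238 and 6118 bp, and 1955 and 3392 bp. Esrra, the widely expressed oestrogen-related receptor, had 2102 and 3570 bp and 0 bp of H3K27me3. Esrrb and Esrrg had 2001 bp of H3K27me3 in both states together with short H3K4me3 domains. These measured 844 and 1533 bp at Esrrb, and 1421 and 1190 bp at Esrrg, which was thus shorter in ASC (-0.26).

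Other housekeeping gene families gave similar values. The median log2 ratio was 0.91 for 73 of 77 cytosolic ribosomal protein genes, 0.78 for 78 of 78 mitochondrial ribosomal protein genes and 0.90 for proteasome subunit genes, of which 33 of 34 (QSC) and 34 (ASC) were called. The value of 0.79 for oxidative phosphorylation genes lies within this range, and each of the 4 lies above the 0.54 of all genes. The median percentile of the cytosolic ribosomal genes was 92.0 in QSC and 97.4 in ASC, above the 70.2 and 84.6 of the oxidative phosphorylation genes. The mitochondrial ribosomal genes had 66.5 and 79.4, and the proteasome genes 74.2 and 88.3. A domain lengthened in ASC beyond the median of all genes was thus not found at oxidative phosphorylation genes alone.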

How the data were processed

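Chromatin from sonicated nuclei was immunoprecipitated for H3K4me3 or H3K27me3 and tagmented on the antibody, and libraries were sequenced as 2 reads of 75 bp, per the labels' protocols. The submitters' processing notes name the build mm10 and, among other tools, Bowtie2 2.3.2, MACS2 2.1.1 and Picard 2.9.2, and the sources used here give no settings. The authors deposited, per peak, a fold enrichment, which is a linear ratio, and a q-value as its -log10. The labels name each list for both replicates of a group, so it was treated as 1 pooled result, and whether replicates came from separate animals is unstated. Signal tracks were not used here.

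Gene records and promoter sequences came from RefSeq (GRCm38.p6, with the same coordinates as mm10). Starts were listed for 17492 of 21887 protein-coding genes, and the other genes had windows at both record ends, which can miss or add a start. Coordinates are 1-based. Window placement, merging and rank were computed with Python 3.11.15, numpy 2.4.6 and pandas 2.3.3, figures with matplotlib 3.10.9, and intervals of medians from binomial order statistics with scipy 1.17.1. The steps were tested on simulated peaks. A percentile counts ties at their middle rank, and the narrow H3K4me3 lists held 1465 and 1715 distinct folds. Genes named were all members lacking an H3K4me3 call, all isoforms and counterparts, all members with H3K27me3, and the 5 highest and 5 lowest by ratio and by rank and the 5 longest domains. Of the other genes, those with H3K27me3 or differing calls and all regulators were named. A result that the rule would name is not reported here. Further genes given as examples were chosen after their values were seen. The members and gene lists were chosen with earlier results of these data known. Alternatives covered windows, merging gaps, overlaps, score thresholds, list sizes and the other list of each mark.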

Additional observations from a re-analysis of the deposited data

How the results depend on the processing

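No paired analysis was possible because each peak list stands for both replicates of its group and carries no value per replicate, and leaving out a replicate was not possible for the same reason. The median log2 ratio of domain length stayed between 0.79 and 0.80. A longer domain in QSC appeared at 2 members with equal covered bases, at 2 with merging of touching peaks only, at 1 with merging over 3 kb and at 1 with both record ends for every gene. The 86 longer domains became 49 of 49 when shared domains were left out. At Ndufb10 the log2 ratio was 1.96 with touching peaks only. At Ndufaf3 it was 0.88 there and 1.16 with merging over 3 kb. The 3 members called for H3K4me3 in QSC only became 1 at a -log10 q of at least 5, 1 with listed starts only (chosen after seeing the data) and 5 with equal covered bases, where Ndufs8 and Ndufa1 lost their ASC call because the ASC list was shortened to 7875 peaks. The median percentile of 68.5 in QSC and 84.6 in ASC over all called members became 59.1 and 77.9 when ranked among called genes instead of peaks. H3K27me3 counts were sensitive, and the higher count passed from QSC to ASC with narrow lists, at 1000 bp, at 1 bp (8 in QSC), at the q threshold and with windows of 2.5 kb, for all calls and for calls in 1 state only. These settings were run for the members, with no matching share of all genes. The 7 members in QSC became 2 with narrow lists, 4 at 1000 bp, 1 at a -log10 q of at least 1.3, 0 at a fold of at least 3 and 22 with windows of 2.5 kb. The 6 in ASC stayed 6 at 1000 bp and became 3, 3 and 0 with narrow lists, the q and the fold threshold, 12 at 1 bp and 28 with windows of 2.5 kb. The 2 in QSC only became 1, 0, 0, 1, 0 and 4, and the 1 in ASC only became 2, 2, 4, 3, 0 and 10, with narrow lists, 1000 bp, 1 bp, the q threshold, the fold threshold and 2.5 kb, and 2 with both record ends. The cause of these changes was not tested beyond the fewer or more bases that each setting admits. Depth per sample is unknown, so a peak missing from a list does not show that the mark is absent.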
